A study of Mus musculus with 3 samples.

Results

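The genes described here encode the mitochondrial respiratory chain and ATP synthase of mouse embryonic kidney cells, in both genomes that carry them. They were taken by symbol as every feature starting with Nduf, Uqcr, Cox4 to Cox8, Atp5, mt-Nd, mt-Co, mt-Atp or mt-Cytb, together with Sdha, Sdhb, Sdhc and Sdhd, and 7 pseudogenes were left out. The rule gave 110 of the 28883 mouse features in the tables, of which 107 were listed on the cultured E11.5 plate, 108 on the cultured E12.5 plate and 109 on the uncultured E11.5 plate. 93 members are nuclear-encoded genes, 3 are nuclear features merged with an overlapping neighbour (Ndufb2-cluster, Ndufb8-cluster and Atp5o-cluster), and 14 are encoded in mitochondrial DNA (mtDNA), 2 of them merged (mt-Co3-cluster and mt-Nd4l-cluster). By complex, the nuclear genes comprise 36 of complex I, 4 of complex II, 8 of complex III, 20 of complex IV (11 subunits and 9 isoforms or paralogues), 15 of complex V and 10 assembly or associated factors. mt-Atp8 was not analysed here.

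The respiratory chain passes electrons from NADH (through complex I) and from succinate (through complex II) by way of ubiquinone, complex III and cytochrome c to oxygen at complex IV, and complex V makes ATP with the proton gradient that complexes I, III and IV build up. Complex II is wholly nuclear-encoded, whereas each of the others combines many nuclear-encoded subunits with a few that are transcribed and translated inside mitochondria. In the developing kidney, nephron progenitors are known to lean on glycolysis, and the tubule cells that derive from them depend strongly on oxidative phosphorylation.

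SORT-seq, which sorts cells into 384-well plates and tags each captured molecule with an identifier (UMI), was run on 3 plates of C57BL/6 kidney cells. The cultured E11.5 plate held cells of E11.5 kidneys grown in culture for a time that its labels give differently (7 days in the title, 5 days in the stage), the cultured E12.5 plate held cells of E12.5 kidneys grown for 5 days, and the uncultured plate held cells of E11.5 kidneys taken directly. All 3 plates came from Lgr6-EGFP-IRES-CreERT2 mice, and both cultured plates also carried ROSA26-tdTomato. The cultured plates have wells labelled as holding more than 1 cell (multi-cell wells), and the labels give neither the number of cells in these nor the sorting gate. Culture, genotype and sequencing run differ together between the cultured plates, which share 1 run, and the uncultured plate, and for the cultured E12.5 plate the starting stage differs too, so their parts cannot be told apart. With 1 plate per group there is no replicate and no test. Intervals are exact 95% intervals of counting error alone, and cells of a plate are not replicates.

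After filtering, 300 of 327 wells of the cultured E11.5 plate, 200 of 327 of the cultured E12.5 plate and 337 of 369 of the uncultured plate were kept, with 3337595, 2442338 and 4484988 counts and medians of 9235, 9542 and 7439 counts per well. Of the multi-cell wells 36 of 42 (E11.5) and 38 of 42 (E12.5) were kept. Counts were uneven: wells over 3 times the median held 10.7% and 15% of the counts of the cultured E11.5 and E12.5 plates and 44% on the uncultured plate, where 1 well held 8.81%. Cell types also differed, with summed stroma markers (14 genes) at 27363 and 21539 CPM on the cultured E11.5 and E12.5 plates and 3156 CPM on the uncultured plate, and nephron progenitor markers (10 genes) at 246, 393 and 1382 CPM. Their part in the differences between plates was not tested, and values within single clusters of cells are given beside the pooled ones. CPM are counts per 1000000 mouse counts with mtDNA-encoded counts included. Since each molecule is counted once, CPM were not divided by transcript length.

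Respiratory chain transcripts took a smaller part of the RNA on both cultured plates than on the uncultured plate, and the mtDNA-encoded ones differed more than the nuclear-encoded ones. The 93 nuclear-encoded genes summed to 12637 CPM (12517 to 12759) on the cultured E11.5 plate and 14497 CPM (14346 to 14648) on the cultured E12.5 plate, against 17383 CPM (17261 to 17506) on the uncultured plate. The mtDNA-encoded members summed to 20571 CPM (20417 to 20725) and 24295 CPM (24100 to 24491) on those cultured plates, against 47735 CPM (47533 to 47937) on the uncultured plate. As ratios to the uncultured plate, the nuclear sum was 0.727 (0.718 to 0.736) and 0.834 (0.824 to 0.844), and the mtDNA-encoded sum 0.431 (0.427 to 0.435) and 0.509 (0.504 to 0.514). Both ratios share the uncultured plate as their denominator. Single wells of the plates overlapped: the nuclear sum had quartiles of 10546 and 14584 CPM on the cultured E11.5 plate, 12526 and 17087 CPM on the cultured E12.5 plate, and 14524 and 19306 CPM on the uncultured plate. For the mtDNA-encoded sum the quartile range of wells on either cultured plate did not overlap that of the uncultured plate, at 11627 to 25566 CPM and 13015 to 30780 CPM on the cultured E11.5 and E12.5 plates and 41538 to 59547 CPM on the uncultured plate.

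**Figure D1:**
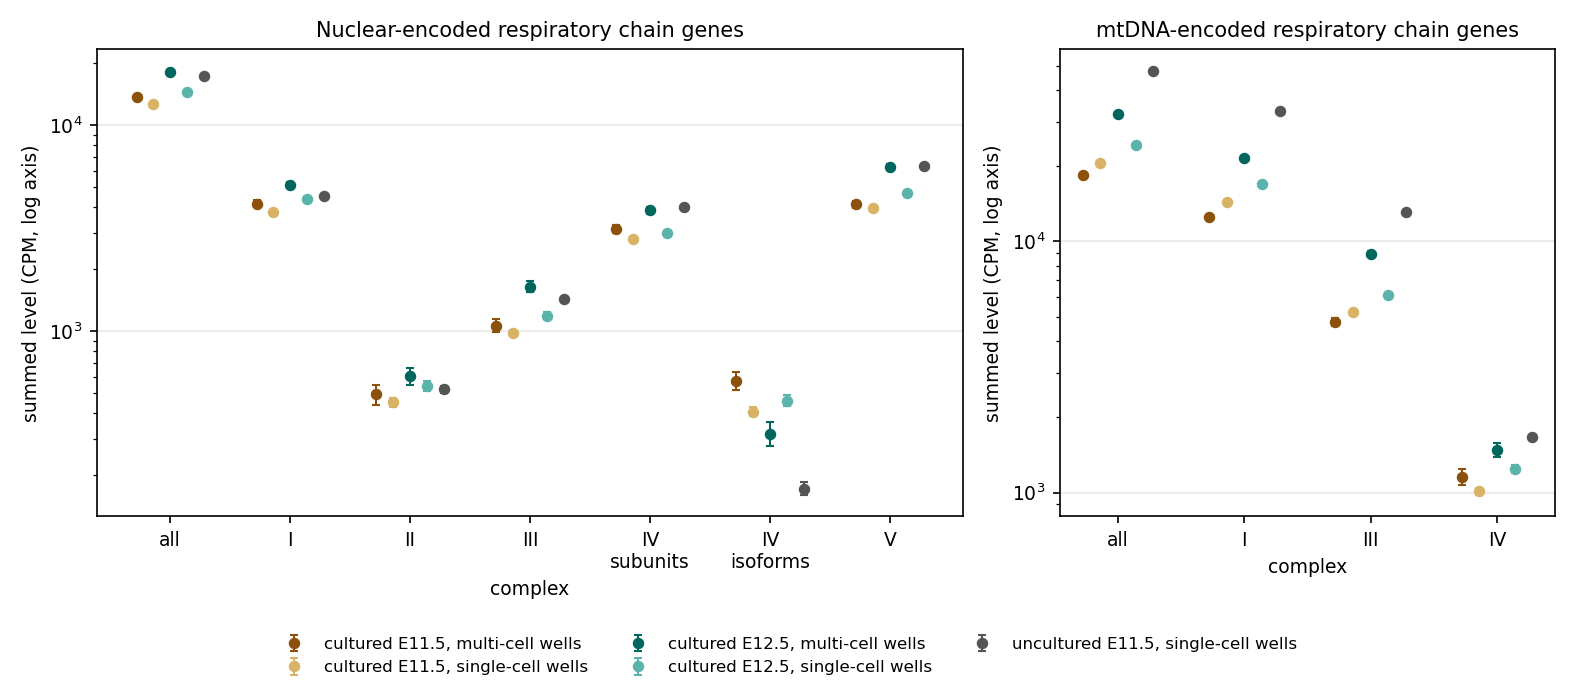
Summed level in CPM (log axis) of nuclear-encoded (left) and mtDNA-encoded (right) respiratory chain genes by complex, with exact 95% intervals of counting error, in multi-cell and single-cell wells of both cultured plates and in single-cell wells of the uncultured plate. Nuclear complex V is at 3985 and 4703 CPM in single-cell wells of the cultured E11.5 and E12.5 plates and at 6333 CPM on the uncultured plate, whereas the complex IV isoforms run the other way, at 407 and 460 CPM against 172 CPM.

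Within single wells, mtDNA-encoded counts were higher than nuclear-encoded counts in 226 of 300 wells (75.3%) of the cultured E11.5 plate, 142 of 200 (71%) of the cultured E12.5 plate and 337 of 337 on the uncultured plate. The ratio of mtDNA-encoded to nuclear-encoded counts had a median over wells of 1.53 on the cultured E11.5 plate, 1.58 on the cultured E12.5 plate and 2.90 on the uncultured plate. By complex, the ratio of summed counts was 3.76 and 3.85 for complex I on the cultured E11.5 and E12.5 plates and 7.22 on the uncultured plate. For complex III, where mt-Cytb is the sole mtDNA-encoded subunit, it was 5.34, 5.16 and 9.22 in the same order. The nuclear sum of complex III lacks Cyc1 (cytochrome c1), which the symbol rule does not take. For complex IV, with the isoforms and paralogues in its nuclear sum, the plates lay closer together, at 0.315, 0.359 and 0.396. Its mtDNA-encoded counts were mostly those of mt-Co1, while mt-Co2 and mt-Co3 were low and uneven between plates. This ratio thus largely sets mt-Co1 alone against the nuclear genes. Wells labelled as controls also held counts, with a summed ratio of 3.44, 2.70 and 3.52 on the cultured E11.5, cultured E12.5 and uncultured plates, at 191, 206 and 1008 counts per control well on average against 11125, 12212 and 13309 per kept well. The part of such free RNA in the levels was not tested.

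**Figure D2:**
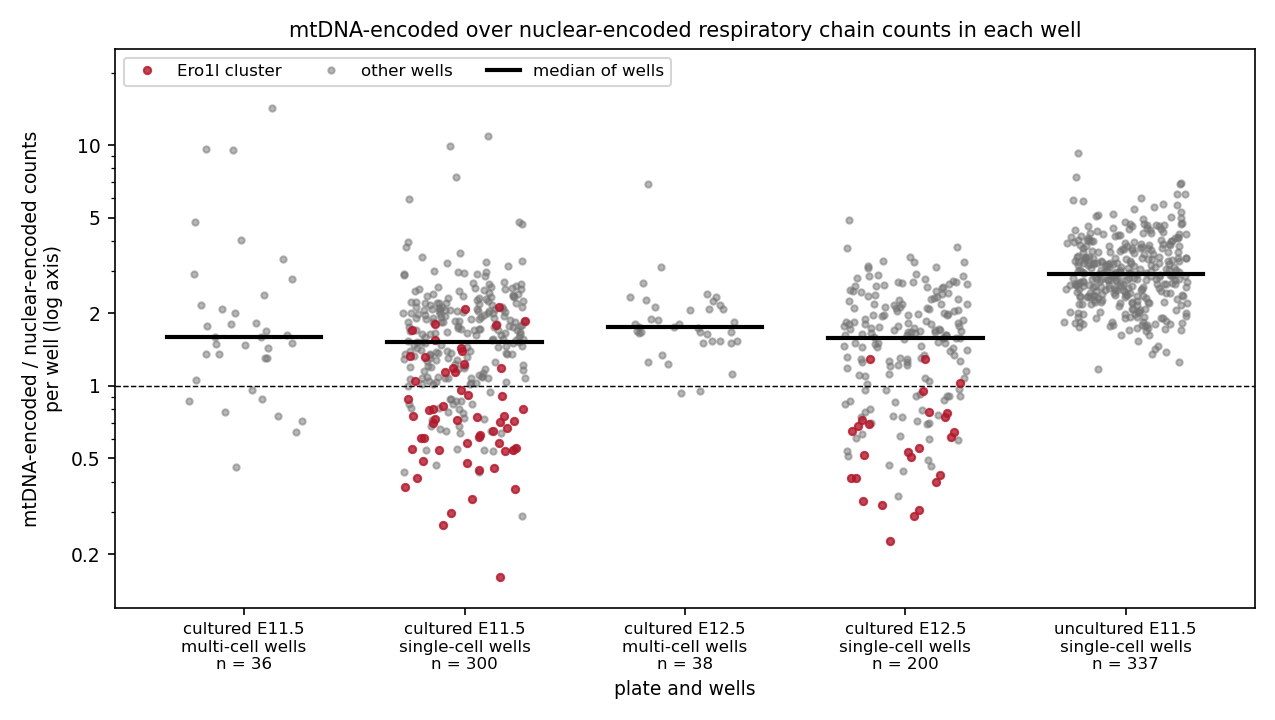
Ratio of mtDNA-encoded to nuclear-encoded respiratory chain counts in each kept well (log axis), with the median of wells as a bar, and cells of the Ero1l cluster in red. The medians are 1.60 and 1.53 in multi-cell and single-cell wells of the cultured E11.5 plate, 1.75 and 1.58 on the cultured E12.5 plate and 2.90 on the uncultured plate, where every well lies above 1.

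Taken gene by gene, 9 of the 89 nuclear genes with at least 10 counts in the pair were at least 1.5-fold higher and 27 at least 1.5-fold lower on the cultured E11.5 plate than on the uncultured plate. Over all 15791 features tested the shares were 33% higher and 20.5% lower, against 10.1% and 30.3% of the nuclear members. Their median log2 ratio was -0.34, and that of all features tested 0.13. On the cultured E12.5 plate, 11 of 89 were at least 1.5-fold higher and 21 lower (12.4% and 23.6%), against 30.1% and 23.4% of 15193 features, with medians of -0.10 for the members and 0.04 for all features. The share of lower genes on the cultured E12.5 plate was thus close to that of all features. Both comparisons share the uncultured wells. The 4 nuclear genes left with too few counts were Cox6a2, Cox7b2, Cox8b and Cox8c.

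**Figure D3:**
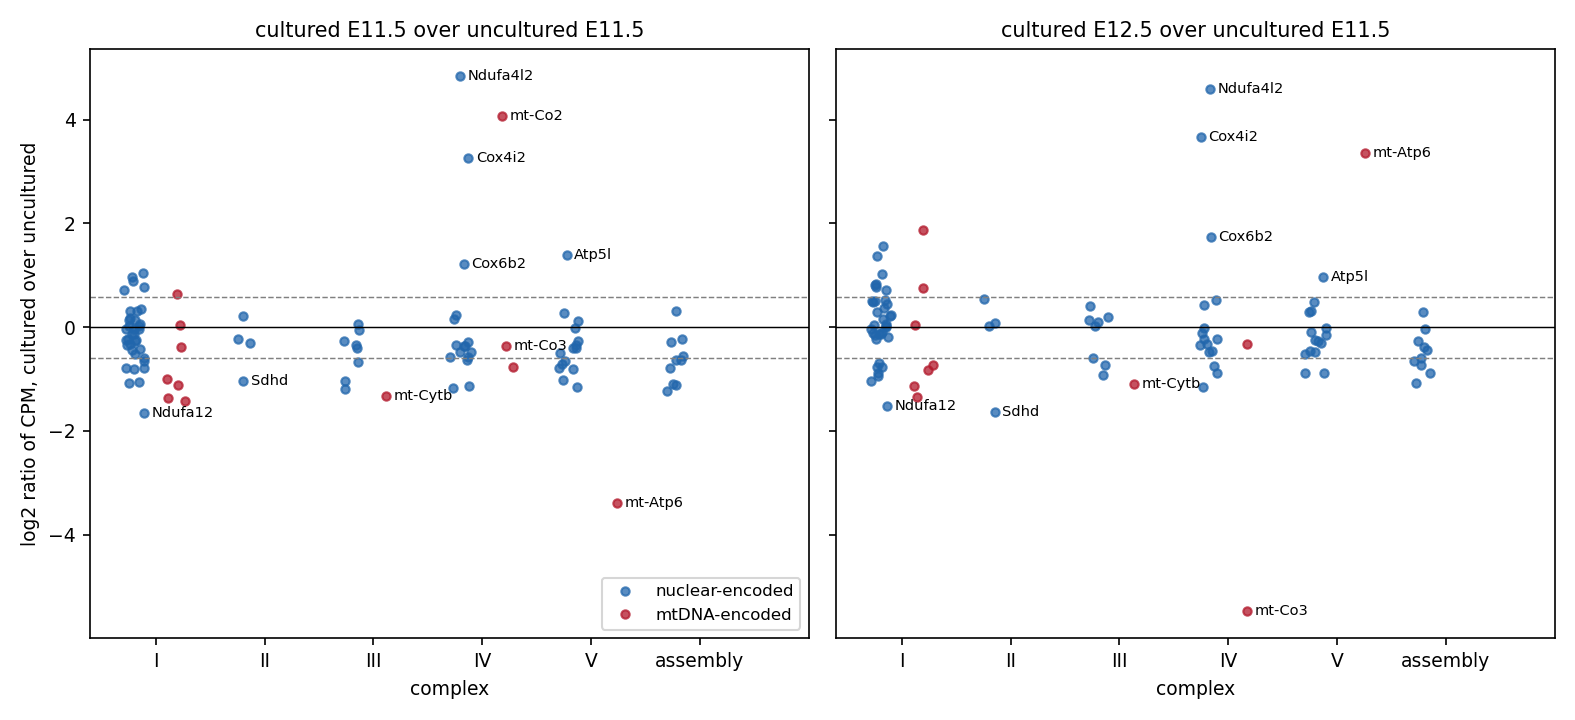
log2 ratio of CPM for each member with at least 10 counts in the pair, cultured over uncultured, by complex (assembly: assembly or associated factors), with dashed lines at 1.5-fold in either direction. Most nuclear-encoded genes (blue) lie near or below 0, Ndufa4l2, Cox4i2 and Cox6b2 lie far above, and the abundant mtDNA-encoded genes (red) such as mt-Cytb, at 0.399-fold and 0.466-fold on the linear scale, lie below.

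Complex I, the NADH dehydrogenase, had a nuclear sum nearer to that of the uncultured plate than complexes III to V, at 3801 CPM on the cultured E11.5 plate and 4377 CPM on the cultured E12.5 plate against 4560 CPM (ratios 0.834, 0.815 to 0.852, and 0.960, 0.938 to 0.983). Its genes went in different directions. Ndufa12, an accessory subunit of the peripheral arm, had the lowest nuclear ratio on the E11.5 plate, at 104 and 114 CPM on the cultured E11.5 and E12.5 plates and 326 CPM on the uncultured plate (0.319, 0.283 to 0.359, and 0.350, 0.307 to 0.398). The accessory subunits Ndufc2, at 195 and 198 against 337 CPM, and Ndufb6, at 129 and 159 against 271 CPM, were lower on both cultured plates. So was Ndufs1, a core subunit that carries iron-sulfur clusters, at 75.2 and 76.2 against 156 CPM. Ndufv3, a small subunit of the NADH-oxidising module, was higher, at 171 and 168 CPM on the cultured E11.5 and E12.5 plates against 82.5 CPM (2.08, 1.82 to 2.37, and 2.03, 1.76 to 2.35). Ndufa7 was at 194 and 210 against 119 CPM, Ndufb2 at 36.9 and 51.2 against 19.8 CPM, Ndufb4 at 37.2 and 56.1 against 19 CPM, and Ndufs5 at 15 and 15.6 against 8.7 CPM. Ndufa6 was close on all plates, at 197 and 185 against 180 CPM. Several small subunits have processed pseudogenes, and the labels do not say how reads that match more than 1 copy were treated.

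In complex II, succinate dehydrogenase, 3 of the 4 subunits were within 1.5-fold of the uncultured level and the membrane anchor Sdhd was not. Sdhd had 36.0 CPM on the cultured E11.5 plate and 23.7 CPM on the cultured E12.5 plate, against 74 CPM on the uncultured plate (0.486, 0.391 to 0.6, and 0.321, 0.238 to 0.425). Sdha, the flavoprotein that oxidises succinate, was at 156 and 186 against 183 CPM, and Sdhb, its iron-sulfur partner, at 112 and 148 against 138 CPM. The other anchor, Sdhc, was at 148 and 184 against 127 CPM, so Sdhc and Sdhd lay on opposite sides of the uncultured level.

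The 8 nuclear genes taken for complex III, the cytochrome bc1 complex, do not include its subunit gene Cyc1. They summed to 983 CPM and 1189 CPM on the cultured E11.5 and E12.5 plates and 1426 CPM on the uncultured plate (0.689, 0.660 to 0.719, and 0.834, 0.798 to 0.871). On the cultured E11.5 plate 7 of these 8 genes lay below the uncultured level, with a median log2 ratio of -0.38 against 0.13 for all features. On the cultured E12.5 plate 3 of 8 lay below it, with a median of 0.06 against 0.04. Uqcrfs1, the Rieske iron-sulfur protein, was at 117 and 144 against 237 CPM, Uqcrq at 122 and 148 against 279 CPM, and the core protein Uqcrc2 at 144 and 152 against 229 CPM. The other core protein, Uqcrc1, was at 165 and 215 against 211 CPM and the hinge protein Uqcrh at 187 and 198 against 180 CPM. On the cultured E12.5 plate, 3 of the 8 genes were at least 1.5-fold lower and none higher, against 23.4% and 30.1% of all features.

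Complex IV, cytochrome c oxidase, held both lower regular subunits and the nuclear genes with the highest ratios. The 11 regular subunits summed to 2805 CPM on the cultured E11.5 plate and 2987 CPM on the cultured E12.5 plate, against 4027 CPM on the uncultured plate (0.696, 0.679 to 0.714, and 0.742, 0.722 to 0.762). Cox4i1 was at 409 and 489 against 497 CPM, Cox8a at 361 and 368 against 501 CPM, Cox7c at 387 and 330 against 606 CPM, and Cox5a at 138 and 183 against 304 CPM. The 9 isoforms and paralogues summed to 407 and 460 CPM against 172 CPM (2.36, 2.16 to 2.58, and 2.67, 2.43 to 2.93). Most of the uncultured sum was Cox7a2l, which was within 1.5-fold on both cultured plates. The higher sum lay mainly in Ndufa4l2, Cox4i2 and Cox6b2, and the remaining genes had few counts.

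Ndufa4l2 was the nuclear member with the highest ratio in both comparisons. Its paralogue Ndufa4 is a complex IV subunit once assigned to complex I, and Ndufa4l2 is known as a target of hypoxia-inducible factor. It had 554 counts in 131 of 300 wells on the cultured E11.5 plate and 339 counts in 83 of 200 wells on the cultured E12.5 plate, against 26 counts in 16 of 337 wells on the uncultured plate. In CPM this was 166 (152 to 180) and 139 (124 to 154) against 5.8 (3.79 to 8.49), ratios of 28.6 (19.3 to 44.2) and 23.9 (16.1 to 37.2). Thinned to 1000 counts per well, 18% of wells (13.8% to 22.8%) on the cultured E11.5 plate and 13.5% (9.09% to 19%) on the cultured E12.5 plate held a Ndufa4l2 count, against 1.48% (0.483% to 3.43%) on the uncultured plate, and unthinned 43.7%, 41.5% and 4.75% did. The control wells held 1 Ndufa4l2 count on the cultured E11.5 plate and none elsewhere. Ndufa4 ran the other way, at 203 and 207 CPM on the cultured E11.5 and E12.5 plates against 458 CPM (0.444, 0.406 to 0.484, and 0.452, 0.409 to 0.498).

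Cox4i2, the isoform of Cox4i1 that is known to respond to low oxygen, was at 34.2 CPM (28.2 to 41.0) and 45.4 CPM (37.4 to 54.7) on the cultured E11.5 and E12.5 plates, against 3.57 CPM (2.04 to 5.79) on the uncultured plate. These are ratios of 9.57 (5.65 to 17.3) and 12.7 (7.51 to 23.1). Cox6b2, a Cox6b1 isoform known from testis, was at 50.9 and 72.9 CPM against 21.9 CPM (2.33, 1.81 to 3.02, and 3.34, 2.59 to 4.31), while Cox6b1 was at 212 and 229 against 317 CPM. Cox7a2 and its relative Cox7a2l were at 164 and 186 against 138 CPM for Cox7a2 and at 153 and 199 against 138 CPM for Cox7a2l. Cox7b was at 181 and 184 against 234 CPM and Cox6a1 at 349 and 377 against 442 CPM. The muscle forms Cox7a1 and Cox6a2 were at most 1.78 CPM and 1.64 CPM on any plate, and Cox7b2, Cox8b and Cox8c at most 1.20 CPM.

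Complex V, ATP synthase, had the lowest ratio of the complexes on the cultured E11.5 plate and on the cultured E12.5 plate one close to that of the regular complex IV subunits, at 3985 CPM on the cultured E11.5 plate and 4703 CPM on the cultured E12.5 plate against 6333 CPM (0.629, 0.616 to 0.642, and 0.743, 0.727 to 0.759). Complex V held the most abundant nuclear members, and its sum is weighted to these. On the cultured E11.5 plate 6 of its 15 genes were at least 1.5-fold lower and 1 higher, against 20.5% and 33% of all features. On the cultured E12.5 plate 2 were lower and 1 higher, against 23.4% and 30.1%. The median log2 ratios were -0.40 and -0.24, against 0.13 and 0.04 for all features. Atp5g3 was at 610 and 669 CPM against 1240 CPM, and it is 1 of 3 genes for the same c-ring subunit. Its sister genes did not follow, with Atp5g1 at 140 and 161 against 115 CPM and Atp5g2 at 5.99 and 7.37 against 6.02 CPM. The catalytic beta subunit Atp5b was at 631 and 773 against 1098 CPM, the alpha subunit Atp5a1 at 591 and 736 against 1018 CPM, and the stalk subunit Atp5h at 290 and 352 against 647 CPM. Atp5l, subunit g, was higher, at 45.5 and 34.0 against 17.4 CPM (2.62, 1.98 to 3.49, and 1.95, 1.42 to 2.70).

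The 10 assembly or associated factors summed to 206 and 238 CPM on the cultured E11.5 and E12.5 plates and 342 CPM on the uncultured plate (0.602, 0.550 to 0.659, and 0.697, 0.633 to 0.767). On the cultured E11.5 plate 6 of 10 were at least 1.5-fold lower, and 5 of 10 on the cultured E12.5 plate, against 20.5% and 23.4% of all features. Ndufaf1, which assembles complex I, was at 18.6 and 23.7 against 43.7 CPM, and Ndufaf2, another complex I factor, at 29.4 and 39.7 against 62.5 CPM. Of the merged nuclear features, Ndufb8-cluster was at 80.3 and 84.8 against 92.8 CPM, Ndufb2-cluster at 54.2 and 48.7 against 49.5 CPM, and Atp5o-cluster at 1.2 CPM or less.

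Promoters of nuclear respiratory genes are known for sites of the factors NRF1 and GABP. 74 of the nuclear genes matched an entry in RefSeq's promoter table (GRCm38.p6), in which the 250 bases before the start were searched on both strands. The NRF1-type motif (GCGCA, any base, then GCGC) was found in 13 of these 74 (17.6%) and in 3.86% of all 27025 promoters. The ETS-type motif CCGGAAG was found in 13 of 74 (17.6%) and in 7.05% of all promoters, and the motifs do not overlap in the sequences shown. The core ACGTG or GCGTG, as bound by hypoxia-inducible factor, was in 39 of 74 (52.7%) and in 38.6% of all promoters, and is not marked below. Shown first are the 3 genes with an NRF1-type match that were most abundant on the uncultured plate, and then Ndufa12, which had the lowest nuclear ratio on the cultured E11.5 plate and matched neither motif. They were chosen after values were seen. Each runs 5′ to 3′ on the gene's strand, and capitals mark the motifs in either orientation.
Atp5h: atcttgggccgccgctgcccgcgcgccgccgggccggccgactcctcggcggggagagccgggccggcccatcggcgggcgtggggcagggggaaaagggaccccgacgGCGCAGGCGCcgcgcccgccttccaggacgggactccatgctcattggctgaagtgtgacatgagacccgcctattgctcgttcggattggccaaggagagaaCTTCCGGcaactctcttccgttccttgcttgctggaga
Cox6a1: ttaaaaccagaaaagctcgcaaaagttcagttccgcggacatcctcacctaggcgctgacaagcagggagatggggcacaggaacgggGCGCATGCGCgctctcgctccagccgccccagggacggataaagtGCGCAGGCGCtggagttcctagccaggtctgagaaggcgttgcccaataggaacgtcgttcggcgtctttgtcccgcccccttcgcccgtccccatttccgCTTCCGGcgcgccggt
Atp5k: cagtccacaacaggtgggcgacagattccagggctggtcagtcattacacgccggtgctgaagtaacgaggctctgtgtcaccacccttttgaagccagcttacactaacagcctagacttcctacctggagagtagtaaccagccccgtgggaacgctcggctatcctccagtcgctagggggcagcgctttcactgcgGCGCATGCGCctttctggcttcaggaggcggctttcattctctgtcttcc
Ndufa12: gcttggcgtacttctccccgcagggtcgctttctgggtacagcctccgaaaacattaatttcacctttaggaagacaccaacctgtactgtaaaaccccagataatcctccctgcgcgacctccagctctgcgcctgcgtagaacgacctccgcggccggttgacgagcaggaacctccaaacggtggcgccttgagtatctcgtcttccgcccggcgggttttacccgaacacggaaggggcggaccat
These lie at chr11:115419920-115420169 (minus strand), chr5:115348959-115349208 (minus), chr5:108434400-108434649 (minus) and chr10:94198785-94199034 (plus). The NRF1-type match began 141 bases before the start in Atp5h, 162 and 117 bases before it in Cox6a1, and 50 bases before it in Atp5k. A match is a string of letters and not a measured site. Ndufa4l2, Cox4i2 and Cox4i1 have no entry in the promoter table.

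Among the mtDNA-encoded members, 6 genes (mt-Cytb, mt-Nd1, mt-Nd2, mt-Nd4, mt-Nd5 and mt-Co1) held 99.12% and 99.37% of the counts on the cultured E11.5 and E12.5 plates and 99.6% on the uncultured plate. mt-Cytb was at 5248 and 6133 CPM against 13150 CPM (0.399, 0.392 to 0.406, and 0.466, 0.458 to 0.475), mt-Nd4 at 4367 and 5142 against 11303 CPM, and mt-Nd5 at 1914 and 2028 against 5129 CPM, the lowest ratios of the 6 at 0.373 and 0.395. mt-Nd1 was at 4569 and 5481 against 9086 CPM and mt-Nd2 at 3383 and 4126 against 7325 CPM. mt-Co1, the catalytic core of complex IV, stood nearest to the uncultured plate, at 908 and 1234 against 1551 CPM (0.585, 0.561 to 0.611, and 0.795, 0.762 to 0.830). mt-Nd6, the sole protein gene read from the other DNA strand, was level, at 71.6 and 70.8 against 69.0 CPM (1.04, 0.874 to 1.23, and 1.03, 0.849 to 1.24). The strand setting of the counting is unknown here, so reads of mt-Nd6 and of transcripts antisense to it cannot be told apart. 7 of the 12 mtDNA-encoded members with enough counts were at least 1.5-fold lower and 2 higher on the cultured E11.5 plate, against 20.5% lower and 33% higher of all features. On the cultured E12.5 plate 6 of 11 were lower and 3 higher, against 23.4% and 30.1%. The higher ones were mt-Co2 and mt-Nd3 on the E11.5 plate and mt-Atp6, mt-Nd3 and mt-Nd4l-cluster on the E12.5 plate, all at 63.9 CPM or less.

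The remaining mtDNA-encoded genes were at 109 CPM or less, and several that were detected on 1 plate were near 0 on another. mt-Co3 was at 84.5 CPM on the cultured E11.5 plate, 2.46 CPM on the cultured E12.5 plate and 109 CPM on the uncultured plate. mt-Co2 was at 18.6, 0.409 and 1.11 CPM, mt-Atp6 at 0.599, 63.9 and 6.24 CPM, mt-Nd3 at 4.49, 4.91 and 2.90 CPM and mt-Nd4l at 0, 2.05 and 0.223 CPM in the same order. Gm10925, a pseudogene that RefSeq lists with mt-Atp6 as a synonym, was at 151, 99.9 and 11.4 CPM, so reads of mt-Atp6 and of this nuclear copy cannot be told apart and the mtDNA-encoded part of complex V is not compared here. The merged mt-Nd4l-cluster and mt-Co3-cluster were at 5.73 CPM or less on every plate. mtDNA-encoded ribosomal RNA, which is no member, was at 0.701 (0.694 to 0.708) and 0.558 (0.551 to 0.565) of its uncultured level, with the cultured E11.5 plate above the cultured E12.5 plate, unlike the protein genes.

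3 clusters held at least 10 cells both on a cultured and on the uncultured plate, and they allow the comparison within cells grouped by other genes. The clusters were built without the respiratory chain and mt- genes, and this comparison was chosen after the data were seen. The first had as leading genes the globins Hbb-y, Hba-a1, Hba-x and Hba-a2, followed by Six2, Eya1 and Cited1. It held 9 nephron progenitor markers and is called the Six2 cluster. On the uncultured plate 95.3% of the erythroid marker counts, which include the globins, lay in 1 well. In the Six2 cluster the mtDNA-encoded sum was 31227 CPM in 10 cells of the cultured E12.5 plate and 51687 CPM in 94 uncultured cells (0.604, 0.587 to 0.622). The nuclear sum was 16451 and 17135 CPM (0.960, 0.921 to 1.00), a ratio of 0.920 (0.881 to 0.960) without wells over 3 times the median. In the macrophage and leukocyte-like cluster led by Lyz2, the mtDNA-encoded sum was 25952 CPM in 15 cells of the cultured E11.5 plate and 37878 CPM in 17 uncultured cells (0.685, 0.659 to 0.713). The nuclear sum there was 13536 and 15457 CPM (0.876, 0.826 to 0.929). In the cluster led by Lhx1, Calb1 and Pax8, which holds markers of ureteric epithelium and of early nephron, the mtDNA-encoded sum was 40123 CPM in 13 cells of the cultured E12.5 plate and 40681 CPM in 38 uncultured cells (0.986, 0.959 to 1.01). Without wells over 3 times the median this last ratio was 0.894, and by the mean of CPM per well 0.865. The nuclear sum of the Lhx1 cluster was 18899 and 19457 CPM (0.971, 0.932 to 1.01). In both clusters shared by the cultured E12.5 and uncultured plates, the nuclear ratio was thus nearer to 1 than the pooled 0.834. The ratio of mtDNA-encoded to nuclear-encoded counts per cell had medians of 1.76 and 3.02 in cultured and uncultured cells of the Six2 cluster, 1.73 and 2.45 in the Lyz2 cluster and 2.19 and 2.28 in the Lhx1 cluster. Single cells of both kinds overlapped in all 3 clusters. Ndufa4l2 was at 39.8 and 3.10 CPM in the Six2 cluster, 30.6 and 15.5 CPM in the Lyz2 cluster and 13.9 and 0 CPM in the Lhx1 cluster, from 6 counts or fewer in each.

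The cultured plates were also set against each other. On the cultured E12.5 plate the nuclear sum was 1.15 times (1.13 to 1.16) that of the cultured E11.5 plate and the mtDNA-encoded sum 1.18 times (1.17 to 1.19). The nuclear genes lay close together, with log2 ratios from -0.60 to 0.66 and a median of 0.26 over 88 genes, against -0.01 over all 15363 features tested. 75 of the 88 were above 0. 2 were at least 1.5-fold higher and 1 lower, against 11.1% higher and 15.9% lower of all features. The higher ones were Uqcr11, a small complex III subunit, at 62.6 CPM on the E12.5 plate and 39.5 CPM on the E11.5 plate, and Ndufb4, at 56.1 and 37.2 CPM. Cox6b2 and Uqcr10 followed, at 72.9 and 50.9 CPM and at 129 and 91.7 CPM. Sdhd was the lower one, at 23.7 and 36.0 CPM, followed by Ndufaf6 at 11.1 and 15 CPM and Atp5l at 34.0 and 45.5 CPM. Ndufa4l2 was at 139 and 166 CPM (0.836) and Cox4i2 at 45.4 and 34.2 CPM (1.33).

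Among clusters with at least 10 cells on a plate, 1 cluster had the lowest mtDNA-encoded level on both cultured plates. It was led by Ero1l, P4ha2, Slc2a3, Bnip3 and Ndrg1 and is called the Ero1l cluster. Its best match was stroma, with 2 markers (Penk and Postn), below the 3 needed for a name. It held 57 cells of the cultured E11.5 plate, 26 of the cultured E12.5 plate and none of the uncultured plate. Summed stroma markers were at 20822 CPM in Ero1l cells and 28506 CPM in other cells of the E11.5 plate, and at 15279 and 22171 CPM on the E12.5 plate. The mtDNA-encoded sum was 11343 CPM in Ero1l cells and 22183 CPM in the other cells of the E11.5 plate (0.511, 0.497 to 0.525), and 9610 and 25778 CPM on the E12.5 plate (0.373, 0.357 to 0.389). The nuclear sum with the isoforms included did not differ beyond counting error, at 12604 and 12643 CPM on the E11.5 plate (0.997, 0.970 to 1.02) and 14494 and 14497 CPM on the E12.5 plate (1.00, 0.964 to 1.04). Without the complex IV isoforms it was slightly lower, at 0.956 (0.930 to 0.983) on the E11.5 plate and 0.966 (0.931 to 1.00) on the E12.5 plate, with the isoforms at 2.49 (2.21 to 2.80) and 2.13 (1.82 to 2.49). On the E11.5 plate the regular complex IV subunits were at 0.932 (0.878 to 0.988) and complex V at 0.947 (0.901 to 0.994). Of the nuclear genes, 4 of 88 were at least 1.5-fold higher and 9 lower in Ero1l cells of the E11.5 plate, against 13.2% and 25% of 13911 features, and 7 and 8 of 88 on the E12.5 plate, against 22.7% and 21.9% of 12844 features. The mtDNA-encoded counts were higher than nuclear-encoded counts in 17 of 57 Ero1l cells and 209 of 243 other cells of the E11.5 plate, and in 3 of 26 and 139 of 174 on the E12.5 plate. Ero1l cells were shallower, with median counts of 7717 and 10057 on the E11.5 plate and 7326 and 10153 on the E12.5 plate. Drawn at a finer Leiden resolution of 2.0 or a coarser one of 0.5, the mtDNA-encoded ratio was 0.432 and 0.580 on the E11.5 plate, and at 0.5 it was 0.692 on the E12.5 plate.

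In the Ero1l cells, mt-Nd4 was at 2031 CPM, against 4776 CPM in the other cells of the E11.5 plate (0.425, 0.398 to 0.453), and at 1868 against 5473 CPM on the E12.5 plate (0.341, 0.309 to 0.376). mt-Cytb was at 2578 against 5715 CPM and at 2243 against 6525 CPM on those plates. mtDNA-encoded ribosomal RNA was lower too, at 0.714 and 0.434 of the level in other cells. Ndufa4l2 and Cox4i2 were higher on both plates, and Cox6b2 on the E12.5 plate alone. Ndufa4l2 was at 465 CPM (407 to 529) in Ero1l cells and 114 CPM in the other cells of the E11.5 plate (4.09, 3.44 to 4.86), and at 424 CPM (343 to 518) and 110 CPM on the E12.5 plate (3.86, 3.01 to 4.91). Cox4i2 was at 96.7 and 23.2 CPM (4.16, 2.81 to 6.13) and at 112 and 38.8 CPM (2.88, 1.77 to 4.54). Cox6b2 was 2.09-fold (1.37 to 3.09) higher in Ero1l cells of the E12.5 plate, at 138 and 66.3 CPM, and level on the E11.5 plate, at 48.3 and 51.4 CPM (0.941, 0.584 to 1.46). On the E11.5 plate Ndufs5, at 32.2 and 12 CPM, Atp5l, at 76.5 and 40.1 CPM, and Cox7a2l, at 211 and 143 CPM, followed, and on the E12.5 plate Ndufa6, at 277 and 176 CPM, and Ndufv3, at 237 and 161 CPM. On both plates Ndufa4l2 exceeded Ndufa4 in Ero1l cells, which had 187 and 152 CPM of Ndufa4, and stayed below it in the sum of the other cells. It also stood above Ndufa4 in 3 other clusters on 1 plate each, with overlapping intervals: at 284 CPM (227 to 349) against 209 CPM (162 to 267) of Ndufa4 in the Nrxn3 cluster of the E11.5 plate, and on the E12.5 plate at 231 against 212 CPM in the Mxd3 cluster and 164 against 156 CPM in the cluster led by Tm4sf1 and Tagln. Outside the Ero1l cluster Ndufa4l2 was still higher than the 5.8 CPM of the uncultured plate.

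**Figure D4:**
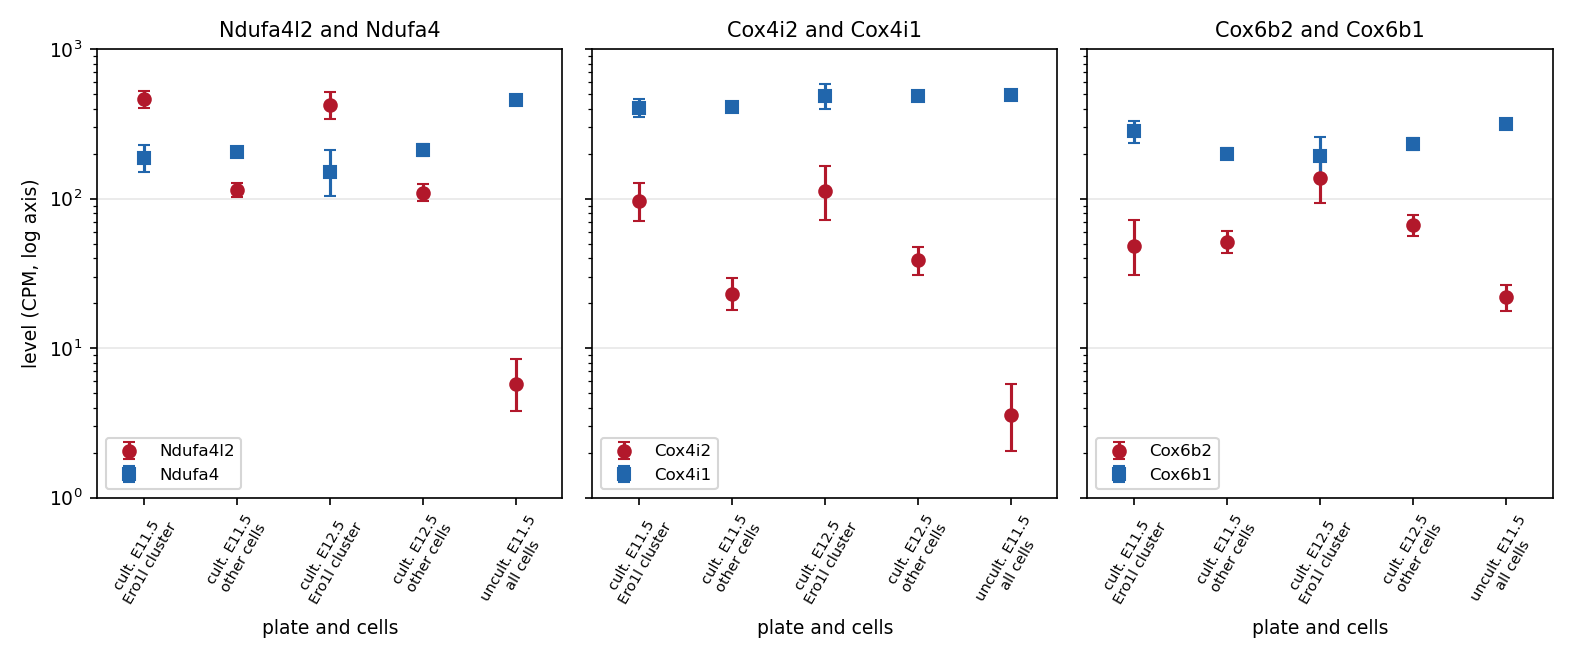
Level in CPM (log axis, exact 95% intervals of counting error) of 3 complex IV paralogues (red circles) and their regular counterparts (blue squares) in Ero1l cells and other cells of both cultured plates and in all cells of the uncultured plate. Ndufa4l2 reaches 465 and 424 CPM in Ero1l cells, 114 and 110 CPM in the other cultured cells and 5.8 CPM in uncultured cells.

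Multi-cell wells were set against single-cell wells of the same plate. Their median counts per well were only somewhat higher, at 10712 against 9235 on the cultured E11.5 plate and 12163 against 9542 on the cultured E12.5 plate. On the cultured E12.5 plate the nuclear sum was 18137 CPM in multi-cell wells and 14497 CPM in single-cell wells (1.25, 1.23 to 1.28), and the mtDNA-encoded sum 32098 and 24295 CPM (1.32, 1.30 to 1.34). 13 of 88 nuclear genes were at least 1.5-fold higher and 3 lower, against 19.6% and 19.8% of 13619 features, with medians of 0.30 and 0.05 on the log2 scale. By complex the nuclear ratios ran from 1.11 (0.994 to 1.25) for complex II to 1.39 (1.29 to 1.49) for complex III. The higher genes included the assembly factor gene Atp5sl, at 54.9 and 25 CPM, Ndufa12, at 212 and 114 CPM, Uqcrfs1, at 260 and 144 CPM, Atp5l, at 60.8 and 34.0 CPM, and Uqcr11, at 107 and 62.6 CPM. The 3 lower genes were the complex IV paralogues, with Ndufa4l2 at 26.7 and 139 CPM (0.192, 0.113 to 0.309), Cox4i2 at 2.97 and 45.4 CPM (0.0653, 0.00781 to 0.241) and Cox6b2 at 46.0 and 72.9 CPM (0.631, 0.416 to 0.928). Next among the lowest stood Ndufv3 at 126 and 168 CPM and Ndufaf7 at 20.8 and 25.4 CPM. Nephron progenitor markers were at 2047 CPM in these multi-cell wells and 393 CPM in single-cell wells, stroma markers at 6231 and 21539 CPM, and erythroid markers at 12733 and 205 CPM, of which 98.8% lay in 1 well, and their part in these differences was not tested.

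On the cultured E11.5 plate multi-cell and single-cell wells were nearer to each other, and the outcome rested on a few wells. The nuclear sum was 13754 CPM in multi-cell wells and 12637 CPM in single-cell wells (1.09, 1.06 to 1.11), and the mtDNA-encoded sum 18419 and 20571 CPM (0.895, 0.878 to 0.913). 5 of the 36 multi-cell wells were over 3 times the median and held 53.5% of the counts and 74.9% of the Ndufa4l2 counts, and without such wells the mtDNA-encoded ratio was 1.18 (1.15 to 1.21). Ndufa4l2 was at 224 and 166 CPM (1.36, 1.12 to 1.63), but at 0.690 times (0.481 to 0.964) the single-cell level without those wells. 3 of 88 nuclear genes were at least 1.5-fold higher and none lower, against 13.5% and 18.7% of 14449 features: Cox4i2, at 62.3 and 34.2 CPM, Ndufa6, at 325 and 197 CPM, and Ndufaf6, at 22.8 and 15 CPM. Without the wells over 3 times the median the Cox4i2 ratio was 1.46 (0.803 to 2.47), and by the mean of CPM per well 1.24, both under 1.5-fold. Uqcrfs1, at 172 and 117 CPM, and Cox7a2l, at 225 and 153 CPM, came next. The lowest were Ndufaf2, Ndufs5, Ndufaf3, Atp5g1 and Ndufb8-cluster, with ratios from 0.673 to 0.757. Nephron progenitor markers were at 896 and 246 CPM and stroma markers at 27777 and 27363 CPM, so the stroma markers did not differ as on the E12.5 plate.

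Other mitochondrial gene lists give the setting of these values. In each list the cultured E11.5 plate is given before the cultured E12.5 plate, each against the uncultured plate, whose wells both share. Over all features, 20.5% and 23.4% were at least 1.5-fold lower and 33% and 30.1% higher, and the counts of each list are to be read against these shares. Of 15 measured genes for mtDNA upkeep and transcription, 9 and 9 were at least 1.5-fold lower and 1 and 0 higher, with median log2 ratios of -0.71 and -0.75. Tfam, which packages mtDNA, was at 48.8 and 70.4 against 116 CPM, and Lrpprc, which stabilises mitochondrial messenger RNAs, at 74.6 and 82.7 against 219 CPM. Ssbp1, Tefm, Mterf3 and Mgme1 also passed 2-fold on 1 or both plates. Of 77 mitochondrial ribosome genes, 31 and 19 were lower and 5 and 9 higher (medians -0.45 and -0.24), so that the lower share on the cultured E12.5 plate was near that of all features. Among them were Mrpl47 at 27.0 and 31.1 against 77.2 CPM and Mrps28 at 15.6 and 6.14 against 33.4 CPM. Of 13 tricarboxylic acid cycle genes, 4 and 5 were lower and none higher (medians -0.44 and -0.28), with citrate synthase Cs at 188 and 210, Idh3a at 42.8 and 46.3 and Fh1 at 50.3 and 38.5 CPM, against 429, 87.2 and 91.7 CPM.

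Of 16 measured complex IV assembly genes, 3 and 5 were at least 1.5-fold lower and 0 and 3 higher (medians -0.21 and -0.10), with the copper chaperone Cox17 at 27.9 and 19.7 against 66 CPM. Cox15 at 35.1 and 24.2 against 58 CPM, Coa7 at 24.3 and 20.5 against 42.4 CPM and Surf1 at 22.5 and 34 against 15.4 CPM passed 2-fold on the cultured E12.5 plate alone. Of 8 regulators of mitochondrial biogenesis, 1 and 3 were lower and 1 and 0 higher, including Gabpa, a subunit of GABP, at 37.8 and 19.7 against 42.6 CPM and Esrra at 21.3 and 13.1 against 9.36 CPM. Ppargc1a, the main coactivator among them, was at 5.09 and 2.46 against 7.36 CPM. Of 6 carriers and channels, 2 and 2 were lower and 1 and 1 higher, with Slc25a5, an ADP/ATP carrier, at 259 and 297 against 561 CPM, Vdac2 at 242 and 269 against 510 CPM and Vdac3 at 111 and 132 against 53.5 CPM. Of Cyc1 and Cycs, 1 and 0 were lower. Of 7 measured uncoupling and antioxidant genes, 1 and 1 were lower and 1 and 2 higher, with the peroxiredoxin Prdx5 at 269 and 255 against 129 CPM. Of 5 mitochondrial genes known to respond to oxygen, 4 and 4 were higher and none lower (medians 1.83 and 1.54). Bnip3, a mitophagy receptor, was at 341 and 245 against 47.0 CPM, Higd1a at 160 and 138 against 45.1 CPM, and Pdk1, which restrains pyruvate dehydrogenase, at 128 and 95.8 against 33.0 CPM. In Ero1l cells and other cells, Pdk1 was at 272 and 103 CPM on the E11.5 plate and 295 and 75.7 CPM on the E12.5 plate, though these genes, unlike the respiratory chain genes, took part in the clustering.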

How the data were processed

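The authors deposited 1 table per plate of expected counts per gene and well, that is, UMI numbers corrected for identifiers drawn more than once: within a tolerance of 0.1, 100% of values equal the correction for 4096 possible UMIs, and 1.54%, 1.63% and 2.03% of values (cultured E11.5, cultured E12.5, uncultured) were not whole. The submitters' processing notes list STAR 2.6.1a, featureCounts 1.5.2 and the build GRCm38.p5. Sums took the values unrounded, and only intervals and thinning took them as whole numbers; whole counts had been assumed when the comparisons were planned. Spike-ins, added sequences and the column of unassigned barcodes (4.21% to 4.27% of counts) were left out. All plates use the same well barcodes.

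Wells were kept with at least 1000 nuclear-encoded counts and at most 30% mtDNA-encoded counts. CPM of summed counts has an exact Poisson interval and a ratio one from the Clopper-Pearson method, applied to how the counts divide between both groups. The ratio interval was tried on simulated Poisson counts alone, which hold no variation between cells or plates. Features with at least 10 counts in a pair were compared, and a count of 0 was set to a floor of 3 counts. The genes named were the 5 highest and 5 lowest ratios per comparison among members with at least 50 counts, the 3 most abundant per complex, the isoform sets and the mtDNA-encoded genes. Sdha to Sdhd were read as exact symbols, and sums leave out the merged nuclear features. Members and lists were chosen with earlier results of these data known.

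Cells were clustered without members and mt- genes (1500 variable genes, 20 components, 15 neighbours, Leiden resolution 1.0, scanpy 1.11.5, leidenalg 0.10.2). A cluster was named from a list with at least 3 markers found in 10% of its cells and at least 2-fold above other cells. That list also needed more such markers than any other list. At least 1 marker of the list had to be among the leading genes, with no other list holding more of these. No doublet caller was run. Thinning drew 1000 counts per well. Figures were drawn with matplotlib 3.10.9 and intervals computed with scipy 1.17.1 under python 3.11.15. Alternatives covered the total, the count minimum, deep wells, equal weight per well, Gm42418, clusters left out and plate rows.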

Additional observations from a re-analysis of the deposited data

Results flagged for a closer look

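The following members lay on opposite sides of 1 on the cultured E12.5 and the cultured E11.5 plate, each with an interval of counting error that leaves out 1. The difference between the plates was not tested. For multi-cell over single-cell wells, the mtDNA-encoded sum was at 1.32 on the E12.5 plate and 0.895 on the E11.5 plate, mt-Cytb at 1.45 and 0.912, mt-Nd1 at 1.31 and 0.894, mt-Nd4 at 1.36 and 0.797, and mt-Nd5 at 1.18 and 0.789. Among nuclear genes, Atp5g1 was at 1.31 on the E12.5 plate and 0.751 on the E11.5 plate, Ndufa4l2 at 0.192 and 1.36, and Cox4i2 at 0.0653 and 1.82. Without wells over 3 times the median, the mtDNA-encoded sum (1.51 on the E12.5 plate and 1.18 on the E11.5 plate) lay above 1 on both plates, and Ndufa4l2 lay below 1 on both. Cox4i2 was then at 1.46 (0.803 to 2.47) on the E11.5 plate, an interval that holds 1. For cultured over uncultured wells, mt-Atp6 was at 10.2 (E12.5) and 0.096 (E11.5), and its reads cannot be told apart from those of Gm10925.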

How the results depend on the processing

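No paired analysis was possible because each group is 1 plate. Of the values recomputed under the alternatives, 120 stayed within the counting error of the reported value (for counts, within 1.5 times), 48 moved and 4 were counted as changing direction. For single members, Ero1l cells and clusters, a change of direction was counted only where the reported interval leaves out 1. Other values that crossed 1 are therefore among those that stayed or moved. Cox6b2 in multi-cell over single-cell wells of the E11.5 plate, at 1.22 (0.848 to 1.73), was 0.613 without deep wells. The cause was not tested. Changing direction, the mtDNA-encoded ratio of multi-cell to single-cell wells on the cultured E11.5 plate (0.895) was 1.18 without wells over 3 times the median and 1.27 by the mean of CPM per well, and that of Ndufa4l2 (1.36) was 0.690 and 0.752.

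Cultured E11.5 over uncultured, the nuclear ratio (0.727) was 0.701 with a total of nuclear-encoded genes, 0.747 by the mean per well, 0.707 without Gm42418 in the total and 0.716 without macrophage, endothelium and neural clusters. The mtDNA-encoded ratio (0.431) was 0.415, 0.394, 0.419 and 0.396 under these settings and 0.412 without wells over 3 times the median. Cultured E12.5 over uncultured, the nuclear ratio (0.834) was 0.804 with the nuclear total, 0.864 without such wells, 0.892 by the mean per well and 0.814 without Gm42418. The mtDNA-encoded ratio (0.509) was 0.491, 0.492, 0.466 and 0.497 there and 0.497 without those clusters.

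Cultured E12.5 over cultured E11.5, the nuclear ratio (1.15) was 1.18 without deep wells, 1.19 by the mean per well and 1.17 without those clusters, where the mtDNA-encoded ratio (1.18) was 1.26. For multi-cell over single-cell wells of the E12.5 plate, the nuclear ratio (1.25) was 1.31 without deep wells, 1.18 by the mean per well and 1.29 against rows A to G, and the mtDNA-encoded ratio (1.32) was 1.51, 1.44 and 1.2 there and 1.34 without wells rich in erythroid markers. On the E11.5 plate it was 0.922 against rows A to G, and 8 members rather than 4 passed 1.5-fold once centred on the median of all features.

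For Ero1l cells over other cells, the nuclear ratio was 1.06 at resolution 0.5 on the E11.5 plate (0.997) and 1.09 at resolution 2.0 on the E12.5 plate (1.00). The mtDNA-encoded ratio was 0.466 without deep wells, 0.490 by the mean per well, 0.580 at resolution 0.5 and 0.432 at 2.0 on the E11.5 plate (0.511), and 0.331, 0.352 and, at 0.5, 0.692 on the E12.5 plate (0.373). Depth limits Cox4i2 and the isoforms of a few counts. The alternatives with Ero1l cells, erythroid wells, merged features, centring, single members and clusters on both plates were chosen after seeing the data.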

Other observations

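Among all clusters and plates with at least 10 cells, the Ero1l cluster had the lowest ratio of mtDNA-encoded to nuclear-encoded counts, at 0.900 in 57 cells of the cultured E11.5 plate and 0.663 in 26 cells of the cultured E12.5 plate. The cluster led by the cell-cycle genes Mxd3, Neil3 and Foxm1 came next, at 1.42 (27 cells) and 1.21 (25 cells) on the cultured E11.5 and E12.5 plates, together with the cluster led by Nrxn3, Sst and Cck at 1.29 (24 cells) on the cultured E11.5 plate and 1.95 (24 cells) on the cultured E12.5 plate. Ndufa4l2 was at 163 and 231 CPM in the cell-cycle cluster and 284 and 163 CPM in the Nrxn3 cluster on these plates. The highest ratio, 3.71, was found in 38 uncultured cells led by Gm26771, Sfrp2 and Plcxd3.

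In the uncultured cells of the neural cluster led by Prph and Tubb3, Ndufa4l2 was at 112 CPM and Cox4i2 at 60.9 CPM, both from 2 of 10 cells, whereas Ndufa4l2 was at 15.5 CPM or less in the other clusters of that plate.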
